A study of Mus musculus with 622 samples.

Results

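The 10 genes described here are imprinted genes of the mouse: Mest, Peg3, Dlk1, Meg3, Gnas, Igf2, H19, Cdkn1c, Nnat and Plagl1. They were chosen by name from a table of 44448 genes measured in 622 single cells, and all 10 had a row. The cells came from pancreatic islets, the clusters of hormone-secreting cells in the pancreas, of wild-type mice of the inbred strain C57BL/6. Each cell was caught in its own chamber of a C1 chip, a microfluidic device in which the cell is lysed and its RNA is copied into cDNA and amplified, and each cell gave 1 library. The labels name no treatment, age, animal or chip, so all cells formed 1 sample. Values below are therefore descriptions over cells, with no p-value and no replicate error, and intervals around shares of cells cover counting error only. The values are RPKM, reads scaled to gene length and to the reads of the cell, which can be compared between genes because they are per length.

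An imprinted gene is transcribed mainly from the allele of 1 parent, under the control of DNA methylation laid down in the egg or the sperm. Many imprinted genes act on growth before birth, and several are known to decline in most tissues after birth. Igf2, Peg3, Mest, Dlk1, Nnat and Plagl1 are known as paternally expressed genes, and H19, Meg3 and Cdkn1c as maternally expressed ones. Gnas holds several promoters with different parental origins, and its main product, the stimulatory G protein subunit, carries signals from hormone receptors to adenylyl cyclase, the enzyme that makes cyclic AMP. In islets, cyclic AMP raises hormone secretion, and Cdkn1c is best known as the inhibitor of cell division whose loss in human tissue goes with focal overgrowth of insulin cells. The table sums both alleles, so parental origin was not measured here.

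A cell was used when at least 1000 genes reached 1 RPKM, which 593 of the 622 cells did. Cells were grouped by the hormone that held at least 90% of the summed RPKM of Ins1, Ins2, Gcg, Sst and Ppy. This gave 395 insulin cells, 33 glucagon cells, 13 somatostatin cells and 11 cells of pancreatic polypeptide (PP). In the other 141 cells no hormone held 90%. These mixed cells include possible doublets and were kept out of the comparisons. Markers outside the rule went with the names: Slc2a2 and Ucn3 were high in insulin cells, Irx1 and Irx2 in glucagon cells, and Hhex, Rbp4 and Ghsr in somatostatin cells. The PP class was marked less clearly, since Pyy was also high in somatostatin cells. Median detected genes were 5259 in insulin cells and 4576, 4371 and 3798 in glucagon, somatostatin and PP cells. By number format the table had 359 full-precision columns and 263 columns of 4 decimals, called rounded here, with median detected genes of 5823 and 4148 in the cells used, at median depths of 764108 and 1510450 reads. Every class held cells of both sets, and for the genes among the 10 that were compared, values within each set are given beside the pooled ones. At least 3 markers of immune cells, fibroblasts or endothelium reached 10 RPKM in 19 insulin, 2 glucagon, 1 somatostatin and 2 PP cells.

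The sequences below show the promoters of the genes on which the results below turn. RefSeq promoter windows of 300 bases, from 250 before to 50 after a transcript's start in build GRCm38, were at hand for 8 of the 10 genes, 17 windows in all. For Gnas, Peg3, Meg3 and Mest the window with the most CpG dinucleotides, the sites at which DNA can be methylated, is printed. It runs 5′ to 3′ on the gene's strand, with each CpG in capitals. Methylation was not measured, so a printed window need not be the one that carries the imprint of its gene.
Gnas, chr2:174329756-174330055, plus strand: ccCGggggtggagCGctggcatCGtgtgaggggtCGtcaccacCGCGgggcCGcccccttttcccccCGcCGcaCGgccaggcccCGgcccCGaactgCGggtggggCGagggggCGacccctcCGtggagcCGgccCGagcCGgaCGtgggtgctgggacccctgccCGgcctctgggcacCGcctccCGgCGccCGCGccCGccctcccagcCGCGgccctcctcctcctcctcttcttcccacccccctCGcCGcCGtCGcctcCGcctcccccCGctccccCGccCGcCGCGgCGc
Peg3, chr7:6730370-6730669, minus strand: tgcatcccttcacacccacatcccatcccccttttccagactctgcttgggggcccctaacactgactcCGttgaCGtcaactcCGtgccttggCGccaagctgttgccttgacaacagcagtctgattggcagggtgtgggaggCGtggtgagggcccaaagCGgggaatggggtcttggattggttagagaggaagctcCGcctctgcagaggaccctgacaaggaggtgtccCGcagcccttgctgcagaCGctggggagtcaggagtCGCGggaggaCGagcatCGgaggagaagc
Meg3, chr12:109540746-109541045, plus strand: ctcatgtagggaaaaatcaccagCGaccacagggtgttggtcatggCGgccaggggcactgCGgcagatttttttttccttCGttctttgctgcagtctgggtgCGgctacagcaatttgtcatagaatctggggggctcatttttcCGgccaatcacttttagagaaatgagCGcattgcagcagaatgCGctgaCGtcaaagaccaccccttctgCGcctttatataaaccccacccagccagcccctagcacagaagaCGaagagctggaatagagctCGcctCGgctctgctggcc
Mest, chr6:30737800-30738099, plus strand: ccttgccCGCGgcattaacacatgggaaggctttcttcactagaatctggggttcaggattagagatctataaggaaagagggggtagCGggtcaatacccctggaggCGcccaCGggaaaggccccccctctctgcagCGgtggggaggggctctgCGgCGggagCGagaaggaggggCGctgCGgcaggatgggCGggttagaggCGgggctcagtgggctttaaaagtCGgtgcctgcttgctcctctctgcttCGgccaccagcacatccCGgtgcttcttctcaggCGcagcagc
The Gnas window held 40 CpG and the Mest window 17, while those of Peg3 and Meg3 held 13 each. The median over all promoter windows of the reference was 7, and 96.1% of them had fewer CpG than the Gnas window. The letters TGCCGC, read on both strands, are the core bound by Zfp57, a factor that keeps imprints. They occurred 2 times in the Mest window, 1 time in the Meg3 window and in neither of the other windows printed. Over all windows of the 10 genes, 6 of 17 held TGCCGC, against 11.6% of all promoter windows. The letters CCATNTT, the core of YY1 sites, occurred in 2 of 17 windows, 1 each of Nnat and Igf2, against 16.1% of all windows. The windows of 1 gene can overlap, as those of Mest and Gnas do. A match of letters is a description, not a bound site.

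Of the 10 genes, 3 were present in nearly every islet cell and 7 in a few cells or none. Gnas reached 1 RPKM in 589, Meg3 in 568 and Peg3 in 559 of the 593 cells. Mest did so in 73 cells, Plagl1 in 60, Nnat in 50, Igf2 in 16, Cdkn1c in 15 and Dlk1 in 6. H19 was listed at 0 in all 593 cells, and such a count still allows up to 0.506% of cells to carry it at that level. The plot of shares shows this split in each class.

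**Figure D1:**
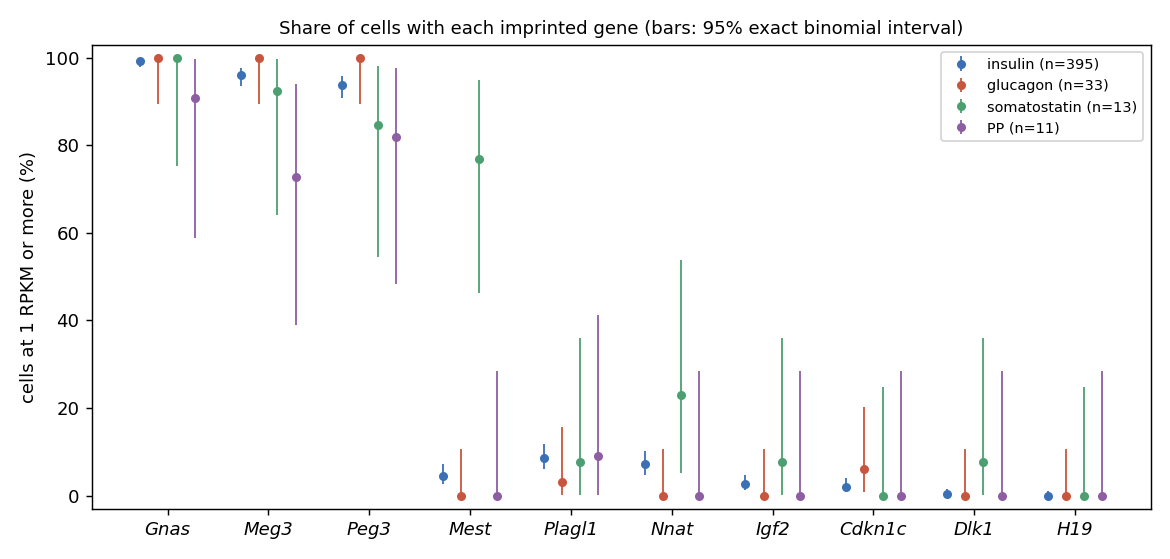
Share of cells, in percent, at 1 RPKM or more of each imprinted gene in the 395 insulin, 33 glucagon, 13 somatostatin and 11 PP cells, with exact 95% binomial intervals that cover counting error only. Gnas, Meg3 and Peg3 lie at the top in every class, and Mest is high in somatostatin cells alone of the 4 classes.

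In most cells just 3 of the 10 genes reached 1 RPKM. This held for 275 of 395 insulin cells (69.6%) and for 30 of 33 glucagon cells. In somatostatin cells 9 of 13 had 4 or more. The summed RPKM of the 10 genes averaged 182 in insulin, 481 in glucagon, 473 in somatostatin and 133 in PP cells. Gnas, Peg3 and Meg3 held 97.9%, 99.8%, 82.9% and 99.4% of these sums. Most of the remainder in somatostatin cells was Mest.

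Each class was compared with the insulin cells by log2((class mean + 1) / (insulin mean + 1)) of RPKM, over genes whose mean reached 5 RPKM in 1 class or both. A ratio of size 1 or more, was called past the fold. All 3 comparisons share the insulin cells. In glucagon cells 1 of the 3 genes with enough signal was past the fold, Gnas, against 32.7% of all 7527 genes compared (11.7% higher and 21.1% lower). In somatostatin cells 4 of 5 were, all higher (Mest, Gnas, Plagl1 and Meg3), against 48.3% of 7890 genes (26.4% higher and 21.9% lower). In PP cells 0 of 3 were, against 48.2% of 7703 genes (20.2% higher and 28.0% lower). With 1 sample and so few genes these counts do not set the imprinted genes apart from others. Mest and Plagl1, with insulin means of 0.811 and 1.58 RPKM, entered the somatostatin comparison only through their somatostatin means. Against such insulin means, any class mean of 5 RPKM or more is past the fold upward, so their 2 calls were set by the filter. The median log2 ratio of all genes compared was -0.14, 0.20 and -0.17 in glucagon, somatostatin and PP cells, and rescaling each cell to the RPKM outside hormone and mitochondrial genes moved it to 0.11, -0.23 and -0.30.

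**Figure D2:**
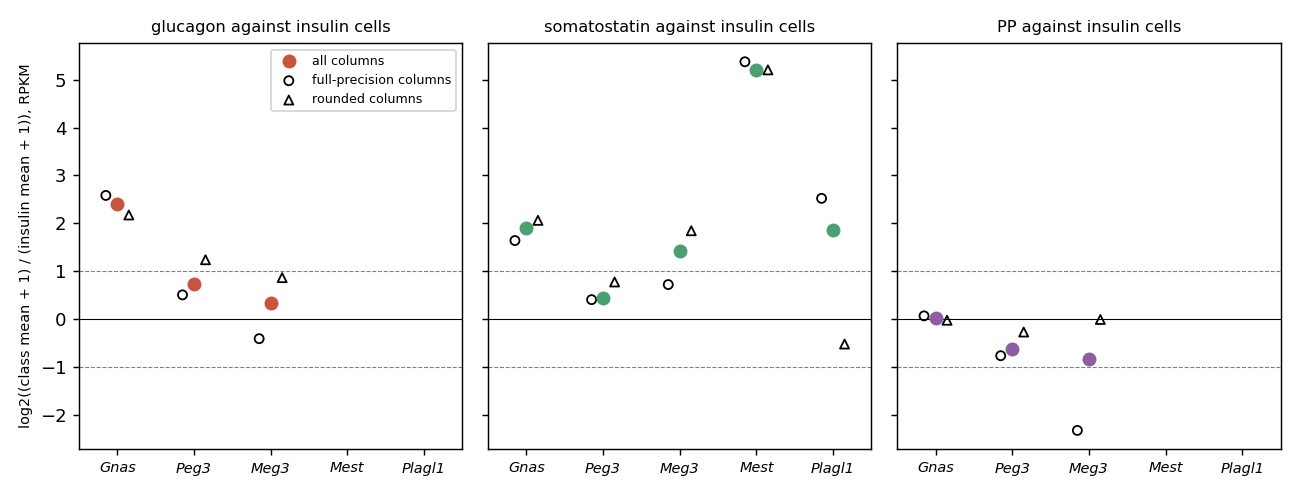
Log2 ratio of class mean to insulin mean, each plus 1 RPKM, for the imprinted genes whose mean reached 5 RPKM in 1 class or both, in the glucagon, somatostatin and PP comparisons. Filled points use all columns, open circles those at full precision and open triangles the rounded ones, and dashed lines mark a size of 1. Gnas in glucagon cells and Gnas and Mest in somatostatin cells lie above the upper line in both sets, while the 2 sets lie far apart for Plagl1 in somatostatin cells and Meg3 in PP cells.

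Gnas (gene ID 14683, GRCm38 chromosome 2, 174284320 to 174346744) was the gene with the plainest difference between classes. Its level ran from 0.597 to 267 RPKM in insulin cells, with a median of 44.6 and quartiles of 24.9 and 70.1. In glucagon cells it ran from 50.8 to 769, with a median of 239 and quartiles of 160 and 337. In somatostatin cells it ran from 24.8 to 440, with a median of 206. In PP cells it ran from 0.391 to 153, with a median of 37.1. The lower quartiles of the glucagon and somatostatin cells lay above the upper quartile of the insulin cells, though the full ranges overlapped. The order of the medians was glucagon, somatostatin, insulin and PP, and both the first pair and the last pair overlapped between their quartiles.

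The means of Gnas were 278 RPKM in glucagon and 51.9 in insulin cells, a log2 ratio of 2.40, or 2.58 at full precision and 2.17 rounded. In somatostatin cells the mean was 196 and the ratio 1.89, with 1.64 and 2.06 within the sets. In PP cells the mean was 52.9 and the ratio 0.03, with 0.07 and -0.02 within the sets. Mixed cells lay between, with a median of 111. Among them Gnas had a median of 148 in the 75 cells with glucagon at 10% or more of the hormones and 84.8 in the other 66. Glucagon cells had fewer detected genes than insulin cells and a higher median mitochondrial share, 15.5% against 11.1% of RPKM. The part of these in the ratio was not tested. With each cell rescaled to RPKM outside hormones and mitochondria, the Gnas ratios were 2.64 in glucagon and 1.49 in somatostatin cells. Transcripts that overlap Gnas, the antisense Gnasas1 and Gm30189, reached 1 RPKM in no insulin, glucagon, somatostatin or PP cell. The table gives 1 value per gene, so the separate promoters of Gnas could not be told apart.

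**Figure D3:**
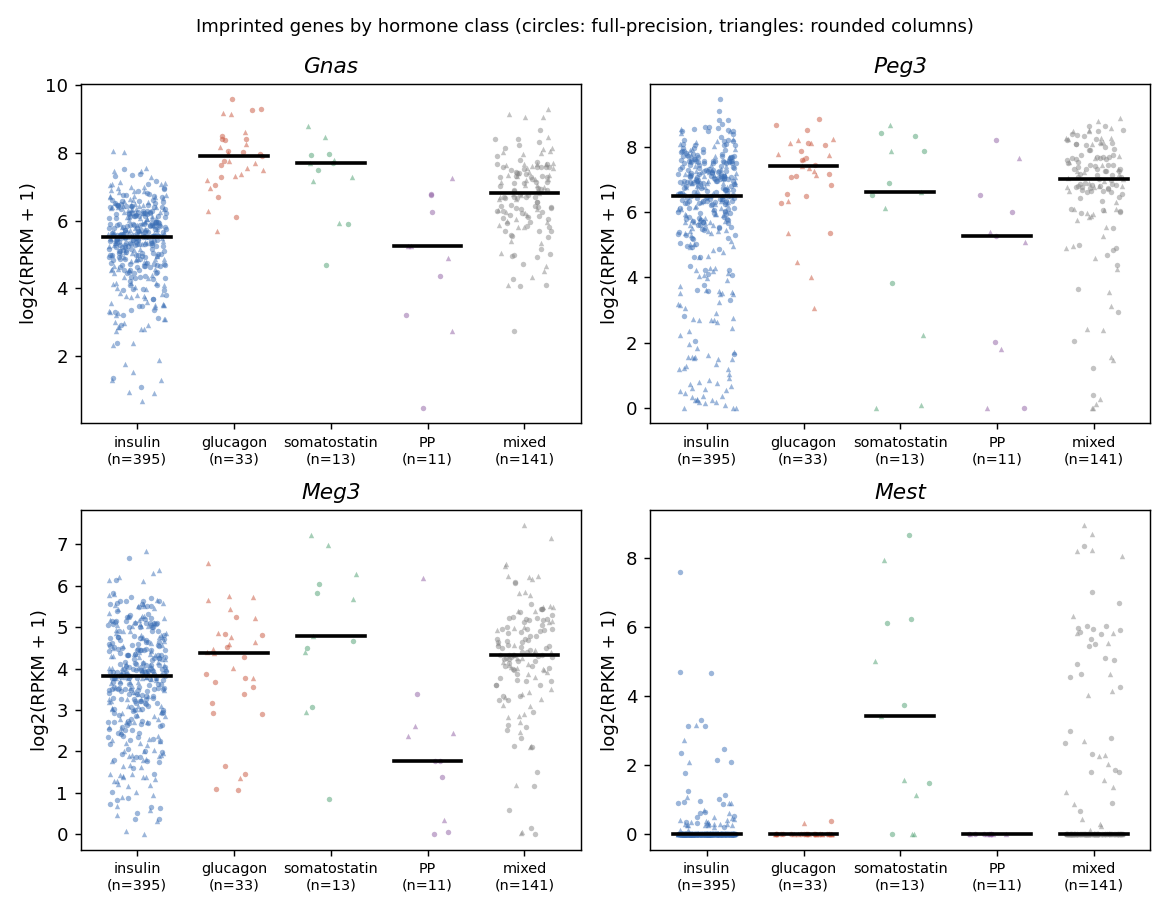
Level of Gnas, Peg3, Meg3 and Mest as log2(RPKM + 1) in single cells by hormone class. Points are cells, circles from full-precision and triangles from rounded columns, and bars are class medians. Gnas medians are 239 and 206 RPKM in glucagon and somatostatin cells against 44.6 in insulin cells, and Mest has a median above 0 in somatostatin cells alone.

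Mest (gene ID 17294, chromosome 6, 30733506 to 30748466) encodes a hydrolase-like membrane protein known from growing fat and embryonic tissue. It was found mostly in cells with somatostatin. It reached 1 RPKM in 10 of 13 somatostatin cells (76.9%, exact 95% interval 46.2% to 95.0%), with values from 0 to 409, a median of 9.67 and quartiles of 1.18 and 68.5. In insulin cells it did so in 18 of 395 (4.56%, 2.72% to 7.11%), with a median of 0 and a highest cell of 192. In glucagon cells it reached 1 RPKM in 0 of 33, where the limit of a count of 0 is 9.09%, and in PP cells in 0 of 11, where it is 27.3%. When each cell was thinned to 250000 reads, 9 of 13 somatostatin and 27 of 391 insulin cells (6.91%) kept at least 1 read of Mest.

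The mean of Mest was 65.9 RPKM in somatostatin and 0.811 in insulin cells, a log2 ratio of 5.21, with 5.37 and 5.20 within the sets. Without its highest somatostatin cell the ratio was 4.40. The mixed cells showed the same link. Of the 38 mixed cells with somatostatin at 10% or more of the hormones, 30 had Mest (78.9%, 62.7% to 90.4%), with a median of 23.2 RPKM. Of the 103 mixed cells below that share, 15 did (14.6%, 8.39% to 22.9%). Of the 28 mixed cells led by insulin with somatostatin, 23 had Mest, and of the 65 led by glucagon with insulin, 3 did. Mest was found in 10 of the 16 led by PP with somatostatin and in 6 of the 23 led by PP with insulin. It was also found in 2 of the 8 led by PP with glucagon and in the 1 led by glucagon with somatostatin.

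Split by the somatostatin share, with borders chosen after the values were seen, the 593 cells had Mest least often at the lowest share. Mest reached 1 RPKM in 18 of the 511 cells with a share under 1% (3.52%) and in 15 of the 31 cells from 1% to 10% (48.4%). It did so in 30 of 38 from 10% to 90% and in 10 of 13 above. The insulin cell with 192 RPKM of Mest lay in the range from 1% to 10%, where 4 of 12 insulin cells had Mest, against 14 of 383 insulin cells under 1%. Within the somatostatin cells Mest was uneven, with 3 cells at 0 and 6 of 13 at 10 RPKM or more. Of the somatostatin cells, 1 carried at least 3 immune markers at 10 RPKM, and defining fibroblast markers such as Col1a1 and Col3a1 were listed at 0 in all 13. Of the acinar markers, Cela1 had a mean of 339 RPKM in somatostatin and 0.943 in insulin cells, with 1 RPKM or more in 6 of 13, and 1 somatostatin cell had at least 3 acinar markers at 10 RPKM. At least 3 ductal markers reached that level in 5 of 13 somatostatin and 74 of 395 insulin cells, and at least 3 glial markers in 0 and 3. Of the ductal markers, Krt19, Sox9 and Cftr were listed at 0 in all 13 somatostatin cells. They reached 1 RPKM in 3, 3 and 1 of 395 insulin cells. The ductal markers Krt7 and Krt18 were broad, at that level in 358 and 353 insulin cells and in 11 and 12 somatostatin cells. The summed acinar markers ran from 0 to 3004 RPKM in somatostatin cells (median 3.91) and from 0 to 194 in insulin cells (median 0). Without the cells carrying immune, fibroblast or endothelial markers, which left 12 somatostatin cells, the Mest ratio was 5.32. The part of cells with acinar, ductal or glial markers in the Mest ratio was not tested.

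**Figure D4:**
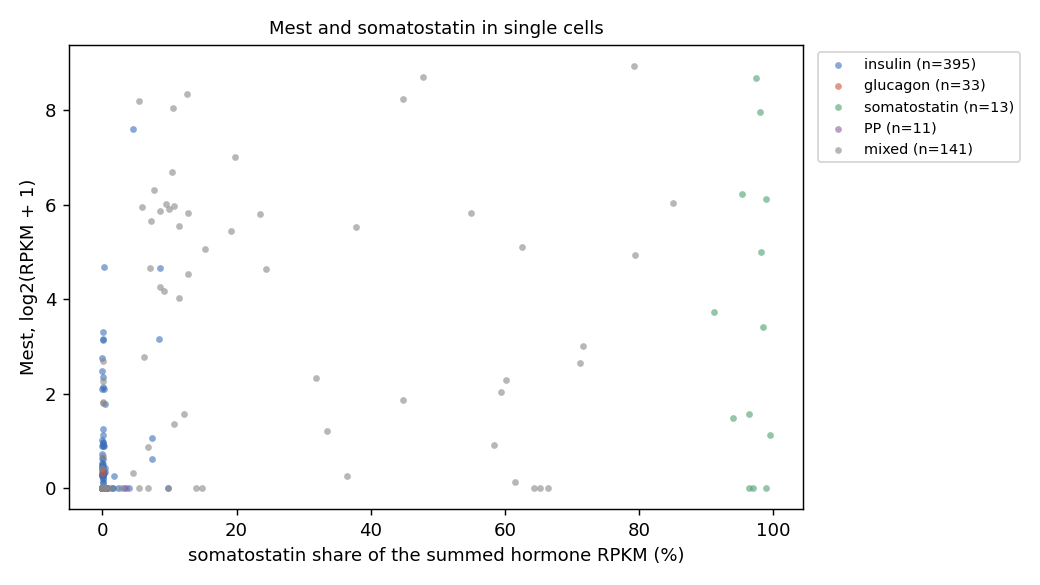
Mest, as log2(RPKM + 1), against the somatostatin share of the summed hormone RPKM in percent, 1 point per cell, coloured by hormone class. Cells with a share of 10% or more mostly carry Mest, 30 of 38 mixed and 10 of 13 somatostatin cells, while most of the 511 cells under 1% sit at 0.

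Copg2 overlaps the 3′ end of Mest on chromosome 6 (30747554 to 30896815) and is imprinted in some tissues. Its mean was 44.6 RPKM in somatostatin and 4.47 in insulin cells, and 9 of 13 and 91 of 395 cells had at least 1 RPKM. Whether the counting used strand is not given in the sources used here, so reads in the overlap cannot be told apart between Mest and Copg2. The miRNA host position Mir335 inside Mest was listed at 0 in every cell.

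Peg3 (gene ID 18616, chromosome 7, 6703892 to 6730462) encodes a zinc finger protein and had the highest level of the 10 genes in insulin cells. There it ran from 0 to 701 RPKM, with a median of 87.9 and quartiles of 33.0 and 154, and it reached 1 RPKM in 370 of 395 cells. The medians were 169 in glucagon, 96.2 in somatostatin and 37.5 in PP cells, and the ranges of all 4 classes overlapped. The log2 ratios to insulin cells were 0.72, 0.44 and -0.63, none past the fold. In glucagon cells the 2 sets gave 0.51 (full precision) and 1.24 (rounded), in somatostatin cells 0.41 and 0.77, and in PP cells -0.76 and -0.27. Without its highest cell the PP ratio was -1.18.

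The 2 sets of columns also differed in Peg3. Within insulin cells its mean was 140 RPKM in the full-precision set and 67.2 in the rounded set, and all 226 cells of the former but 144 of 169 of the latter had at least 1 RPKM. The rounded columns had more reads and fewer detected genes. Over insulin cells Peg3 had a Spearman correlation of 0.38 with the number of detected genes, or -0.11 within the former set and 0.51 within the latter. The antisense transcript Peg3os, which lies inside Peg3, had a mean of 8.66 in insulin and 14.2 in glucagon cells, and 321 of 395 and 30 of 33 cells had at least 1 RPKM. Reads of this pair cannot be told apart without strand.

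Meg3 (gene ID 17263, chromosome 12, 109540996 to 109571729) is a long noncoding RNA of the Dlk1-Meg3 domain, a locus long studied in islets. In insulin cells it ran from 0 to 113 RPKM, with a median of 13.1 and quartiles of 6.25 and 23.2, and it reached 1 RPKM in 379 of 395 cells. Glucagon cells had a median of 19.8 and a highest value of 92.6. Somatostatin cells had a median of 26.4 and quartiles of 20.2 and 64.9. PP cells had a median of 2.44, quartiles of 0.932 and 4.78, and 1 cell at 71.8. The somatostatin cells were thus high and most PP cells low, with overlap of the full ranges in each case.

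The log2 ratio of Meg3 in somatostatin cells was 1.43, from means of 48.2 and 17.3 RPKM, or 0.72 at full precision and 1.84 rounded. It was also under the fold with class medians (0.95), after rescaling (0.93) and in cells with at least 3000 genes (0.73). In glucagon cells the ratio was 0.35, and its sign differed between the sets, -0.41 and 0.87. In PP cells it was -0.84, with -2.32 and -0.01 within the sets. The PP mean rested on 1 rounded cell, and without it the ratio was -2.20. That cell was 1 of the 2 PP cells carrying immune, fibroblast or endothelial markers, and without both the ratio was -2.16.

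Dlk1 (gene ID 13386, chromosome 12, 109452485 to 109463336), the protein-coding partner of Meg3 in the same domain and a membrane protein related to Notch ligands, was found in few cells. It reached 1 RPKM in 1 of 395 insulin cells, 1 of 13 somatostatin cells and 4 of 141 mixed cells, with a highest value of 5.10. In glucagon cells it was listed at 0 in all 33. All 6 cells with Dlk1 also had Meg3, as did 568 of the 593 cells, and 3 of the 4 mixed cells with Dlk1 had somatostatin at 10% or more. Rtl1, which overlaps Meg3, had a mean of 0.342 in insulin cells.

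Plagl1 (gene ID 22634, chromosome 10, 13090832 to 13131694) encodes a zinc finger factor placed at the head of a network of imprinted genes. It reached 1 RPKM in 34 of 395 insulin cells (8.61%, 6.03% to 11.8%), with a mean of 1.58 and a highest value of 110. It did so in 1 of 33 glucagon, 1 of 13 somatostatin, 1 of 11 PP and 23 of 141 mixed cells. The 1 somatostatin cell at 107 RPKM put the log2 ratio at 1.86. Within the sets it was 2.52 and -0.52, and without that cell -1.26, so the ratio describes 1 cell. Few cells carried Plagl1, but some carried much of it, up to 274 in a mixed cell.

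Nnat (gene ID 18111, chromosome 2, 157560078 to 157562525) encodes neuronatin, a small membrane protein of the endoplasmic reticulum known to help the signal peptidase process preproinsulin. It reached 1 RPKM in only 28 of 395 insulin cells (7.09%, 4.76% to 10.1%), with a mean of 0.910 and a highest value of 67.7. It did so in 0 of 33 glucagon, 3 of 13 somatostatin, 0 of 11 PP and 19 of 141 mixed cells. Nnat lies within an intron of Blcap in the mouse, and Blcap had a mean of 14.4 in insulin cells, 160 of which had at least 1 RPKM. At these levels Nnat marked a small share of insulin cells.

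The growth genes of distal chromosome 7 were found in few cells. Igf2 (gene ID 16002, 142650768 to 142666816), a fetal growth factor, reached 1 RPKM in 10 of 395 insulin cells (2.53%), 0 of 33 glucagon, 1 of 13 somatostatin, 0 of 11 PP and 5 of 141 mixed cells, with a highest value of 24.7. H19 (gene ID 14955, 142575530 to 142578146), the noncoding RNA downstream of Igf2, and the miRNA Mir675 inside it were listed at 0 in every cell. Cdkn1c (gene ID 12577, 143458339 to 143461059) reached 1 RPKM in 8 of 395 insulin cells (2.03%), 2 of 33 glucagon, 0 of 13 somatostatin, 0 of 11 PP and 5 of 141 mixed cells, with a highest value of 67.9. Without the insulin cells carrying immune, fibroblast or endothelial markers, 5 of 376 had Cdkn1c (1.33%) and 10 of 376 had Igf2. No cell had both Igf2 and Cdkn1c, which were found in 16 and 15 of the 593 cells. At such shares a count of 0 does not show whether the 2 genes go together. For the small classes the limit of a count of 0 is 9.09% (glucagon), 23.1% (somatostatin) or 27.3% (PP).

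Among the 395 insulin cells Gnas and Meg3 varied little for their level, and Peg3 did so less clearly. The coefficient of variation was 0.742 for Gnas, 0.913 for Meg3 and 0.917 for Peg3. Of the 1334 genes with a mean within 2-fold of that of Gnas, 0.30% had a smaller coefficient, and the quartiles of those genes were 1.32 and 1.99. For Meg3 0.980% of 3266 such genes were smaller, and for Peg3 8.30% of 711, whose quartiles were 1.07 and 1.55. The top 10% of insulin cells held 26.4% of the summed Gnas, 30.7% of Meg3 and 30.4% of Peg3. The sparse genes were the reverse, with 99.1% of both Mest and Plagl1 in those 40 cells. The coefficient of Mest was 12.2, larger than that of 89.2% of genes near its mean, but it was 10.0 and 5.12 within the sets, and 1 cell held 60.1% of the summed Mest. Those of Plagl1, Nnat, Igf2, Cdkn1c and Dlk1 lay within the quartiles of such genes. Within the full-precision and rounded columns the coefficients were 0.610 and 0.877 for Gnas, 0.803 and 1.04 for Meg3, and 0.726 and 1.2 for Peg3. The rounded value of Peg3 lay within the quartiles given above for genes near its mean. RPKM of a longer transcript rests on more reads, and the part of length in these coefficients was not tested.

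**Figure D5:**
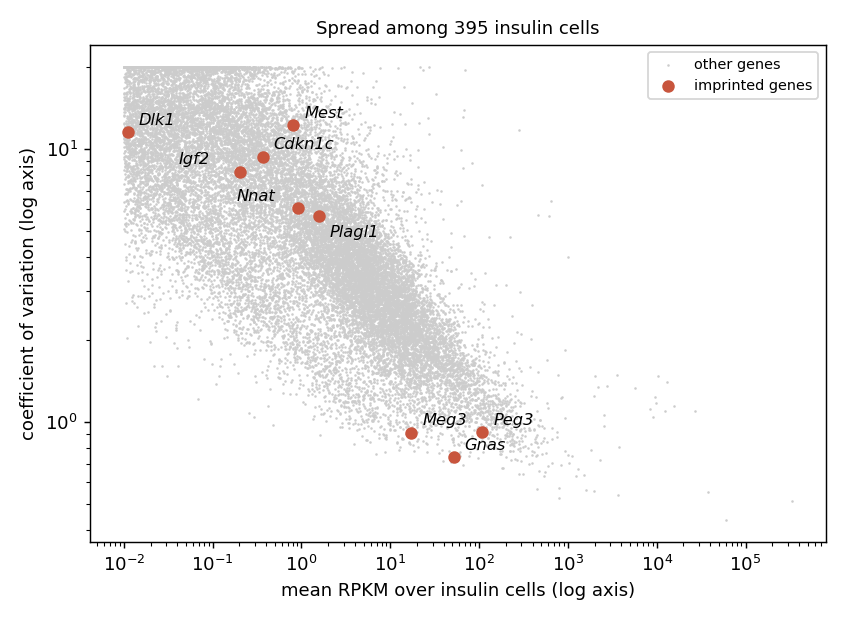
Coefficient of variation against mean RPKM over the 395 insulin cells, both on log axes, 1 point per gene whose mean reached 0.01 RPKM. Gnas, Meg3 and Peg3, at 0.742, 0.913 and 0.917, lie along the lower edge of the cloud, and Mest, at 12.2 with 60.1% of its sum in 1 cell, near its upper side. H19, listed at 0, is not drawn.

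The 3 broad genes were only weakly related to each other from cell to cell. Over the 395 insulin cells, which come from both sets of columns and so differ in depth, the Spearman correlation was 0.18 for Peg3 with Meg3, 0.13 for Peg3 with Gnas and -0.03 for Meg3 with Gnas. Meg3 with Gnas gave 0.13 at full precision and -0.21 in rounded cells. Likeness to other genes was taken as the lower of the correlations in the 2 sets, over 6827 genes. The genes most like Meg3 were A230057D06Rik (0.38), Malat1 (0.37) and Rian (0.36). Rian is a noncoding RNA of the same chromosome 12 domain, and Malat1 is an abundant nuclear noncoding RNA. No gene reached a likeness of 0.3 with Peg3 or Gnas, for which the highest values were 0.27 and 0.26.

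Other genes imprinted in at least some mouse tissues were counted from a list of 63, of which 62 were in the table. In glucagon cells 4 of 28 with enough signal were past the fold upward and 7 downward, with a list median of -0.23. In somatostatin cells the counts were 10 up and 7 down of 27, with a median of 0.56, and in PP cells 5 up and 9 down of 28, with a median of -0.43. Over all genes compared, 11.7% were higher and 21.1% lower in glucagon cells, 26.4% and 21.9% in somatostatin cells, and 20.2% and 28.0% in PP cells. Sgce, a sarcoglycan gene, had log2 ratios of 4.52, 4.40 and 3.30 in glucagon, somatostatin and PP cells, and it reached 1 RPKM in 15 of 33, 9 of 13 and 4 of 11 of them against 12 of 395 insulin cells. Grb10, an adaptor that restrains insulin receptor signalling, had a ratio of 2.56 in glucagon cells, and Copg2 one of 3.06 in somatostatin cells. Insulin cells were higher in Rasgrf1 and Th, with ratios of -3.80 and -3.43 in glucagon and -3.82 and -3.49 in PP cells. They were also higher in Ddc, which makes dopamine and serotonin, and in the amino acid transporter Slc38a4, with ratios of -6.37 and -5.33 in somatostatin cells. Dcn, a fibroblast marker, had a ratio of 2.76 in PP cells from 1 of 11 cells.

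Of the 7 genes of the Plagl1 network outside the 10, Sgce, Grb10, Slc38a4 and Dcn are given above, and Gatm, a creatine synthesis enzyme, had ratios of -1.74, 2.83 and -1.11 in glucagon, somatostatin and PP cells. In all, 3 of 7 were past the fold upward and 2 downward in glucagon cells, 3 and 2 of 6 in somatostatin cells, and 3 and 2 of 7 in PP cells, with list medians of 0.14, 0.72 and 0.68. Of all genes, 32.7%, 48.3% and 48.2% were past the fold in either direction, and a list of 7 genes cannot be set apart from them. Dcn was listed at 0 in glucagon and somatostatin cells.

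Around Gnas, 4 of 26 cyclic AMP genes were past the fold upward and 9 downward in glucagon cells, with a median of -0.60. The counts were 4 and 4 of 23 in somatostatin cells (median 0.06) and 3 and 10 of 23 in PP cells (median -0.80). The shares of all genes were 11.7% higher and 21.1% lower in glucagon cells, 26.4% and 21.9% in somatostatin cells, and 20.2% and 28.0% in PP cells. In glucagon cells the inhibitory subunit Gnai1 (2.79) and Gng2 (1.98) were higher, while Gng12 (-4.76) and the kinase subunit Prkar2b (-3.67) were lower. The related inhibitory subunits Gnai2 (-1.70) and Gnai3 (-1.90), added after their values were seen, were past the fold downward in glucagon cells. Their means there were 28.5 and 7.93 RPKM, against 94.8 and 32.3 in insulin cells. In PP cells both were under the fold (-0.39 and -0.50). In somatostatin cells the transcription factors Creb1 (2.24) and Crem (2.15) were higher, and Atf1 (-2.37) and Prkar2b (-2.24) lower. In PP cells the phosphodiesterase Pde8b (1.88, from 1 of 11 cells) and Gnai1 (1.42) were higher, and Gng4 (-5.02) and Gng12 (-3.43) lower. Gng12 had a mean of 174 RPKM in insulin cells against 5.45 in glucagon and 15.2 in PP cells.

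Around Igf2, 4 of 8 genes of the growth factor axis were past the fold upward and 2 downward in glucagon cells (median 0.72), 1 and 2 of 6 in somatostatin cells (median -0.06) and 3 and 3 of 7 in PP cells (median -0.84), beside 32.7%, 48.3% and 48.2% of all genes past the fold. The receptor Igf1r was lower in all 3 classes, with ratios of -3.21, -1.46 and -2.87, and reached 1 RPKM in 303 of 395 insulin cells. Igfals, a carrier of circulating growth factor, had ratios of -1.23 and -3.73 in glucagon and somatostatin cells and was listed at 0 in PP cells. The ratios upward that were largest in each class rested on few cells: Igfbp3 (2.50, 1 of 33) and Igfbp4 (2.28, 7 of 33) in glucagon cells, Insr (2.60, 3 of 13) in somatostatin cells, and Igfbp4 (3.06, 1 of 11) and Igfbp6 (2.64, 1 of 11) in PP cells. Igfbp7, singled out after its values were seen, was broader in glucagon cells, with a ratio of 2.07 (2.42 and 1.51 within the sets), a median of 68.9 RPKM against 4.84 in insulin cells, and 31 of 33 cells with at least 1 RPKM.

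The lists for the other sparse genes were short, and their counts stand beside the same shares of all genes, 11.7% higher and 21.1% lower in glucagon, 26.4% and 21.9% in somatostatin, and 20.2% and 28.0% in PP cells. Of 5 signal peptidase genes, the partners of Nnat, 3 were past the fold downward in glucagon cells (median -1.41), 0 in somatostatin cells (median -0.02) and 1 in PP cells (median -0.49). Spcs3 and Sec11c had ratios of -2.65 and -1.57 in glucagon cells, and Spcs2 one of -1.15 in PP cells. Of the Notch genes, related to Dlk1, 2 of 4 were up and 1 down in glucagon cells (median 0.89), 0 of 2 in somatostatin cells (median 0.52), and 3 up and 1 down of 6 in PP cells (median 0.95). The named ones were Maml2 (2.39), Dner (1.15) and Hes6 (-1.68) in glucagon cells and Jag1 (5.02, 4 of 11 cells), Heyl (2.60) and Hes6 (-2.58) in PP cells.

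Of the genes of the cell cycle entry, among which Cdkn1c acts, 1 was up and 2 down of 8 in glucagon cells (median -0.53), 0 and 2 of 7 in somatostatin cells (median 0.0039) and 1 and 3 of 8 in PP cells (median -0.30). Beside this list and that of imprint factors below, 32.7%, 48.3% and 48.2% of all genes were past the fold in either direction. The inhibitor Cdkn2b (1.98) was higher and Cdkn2d (-2.62) and Ccnd3 (-1.38) lower in the mean of glucagon cells. These ratios rested on few cells, with medians of 0 in both classes. The 3 genes reached 1 RPKM in 4, 7 and 6 of 33 glucagon cells, against 44, 96 and 105 of 395 insulin cells. Cdkn2b had no ratio in the rounded columns. Ccnd3 (-2.53, 2 of 13 cells) and Cdkn1a (-1.21, 3 of 13 cells) were lower in somatostatin cells, against 105 and 146 of 395 insulin cells. In PP cells Rbl2 (1.37, 3 of 11 cells) was higher, and Cdkn1a (-3.76, 0 of 11) and Ccnd3 (-1.47, 3 of 11) lower. Of the factors that keep imprints, 1 up and 0 down of 4 were counted in glucagon cells (median 0.09), 3 and 2 of 5 in somatostatin cells (median 1.07) and 2 and 1 of 5 in PP cells (median 0.13). Arid4a had pooled ratios of 1.29, 1.38 and 2.10 in the 3 classes, each under the fold in 1 set of columns (0.53, 0.88 and 0.88). Setdb1 (4.03 and 1.69, from 4 of 13 and 3 of 11 cells) was higher and Trim28, the corepressor that Zfp57 brings to imprinted loci, lower (-1.18 and -2.28) in somatostatin and PP cells, as was Dnmt3a (-1.24) in somatostatin cells. Of the 63 ratios named from the lists, 50 had a value in both sets of columns, and 31 of these were past the fold in both. The other 19 were under it in 1 set or both, among them Creb1 (0.70) and Igf1r (-0.60) in somatostatin cells, and 5 of the 19 differed in sign between the sets of columns, with full-precision and rounded values of 3.11 and -0.73 for Igfbp3 and 2.09 and -0.92 for Dner in glucagon cells, -0.16 and 3.49 for Insr in somatostatin cells, and -1.50 and 3.02 for Setdb1 and 1.79 and -1.06 for Rbl2 in PP cells.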

How the data were processed

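The authors deposited 1 table of RPKM values with 44448 genes by Entrez ID and 622 cells, 1 library each. Per the labels' protocols, cDNA was made on the C1 chip with the SMARTer Ultra Low kit and libraries with Nextera XT. Build GRCm38 (mm10), CASAVA 1.8.2 and FastQC are named, per the submitters' processing notes. No label used here names the aligner, the counter or its use of strand. Symbols and positions came from RefSeq for the same build, which matched 39725 IDs. No columns were identical.

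The members and lists were chosen with earlier results of these data known. All 10 members were named, the 3 genes most like a member where likeness reached 0.3, and from each list the 2 largest ratios past the fold in each direction. Markers and lists entered no test, since all cells are 1 sample. Some markers are not reported here. Ratios used a pseudocount of 1 RPKM and no ratio was given for a class listed at 0. Intervals of shares are Clopper-Pearson at 95%. The limit of a count of 0 is 3 counts of the total.

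Reads were recovered from RPKM ratios for 23115 of 23143 genes, and 100.0% of full-precision and 99.9% of rounded values under 100 reads were whole within 0.05. They served for depth (median 1038232 reads per cell, range 2327 to 5999324) and thinning only, and 8 of the 593 cells had under 250000. No count test was run on the recovered reads, because cells are not replicates. H19 had no unit. Scripts were tested on simulated data (Python 3.11.15, pandas 2.3.3, scipy 1.17.1). Alternatives were other pseudocounts, filters, class medians, each set of columns, other class rules, rescaling and leaving out cells.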

Additional observations from a re-analysis of the deposited data

Results flagged for a closer look

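The 29 cells that did not pass the filter of 1000 genes entered no comparison. Their median mitochondrial share was 89.7% of RPKM, with a median of 417 detected genes. Even so, 19 of them had Peg3, 8 had Meg3 and 6 had Gnas at 1 RPKM or more, above the limit that a count of 0 allows. The medians there were 1.16, 0.544 and 0.349 RPKM. No cause was tested.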

How the results depend on the processing

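Of the values of single log2 ratios under the alternatives, 204 stayed on their side of the fold, 14 newly passed it, 6 no longer did and 3 that were past it reversed. Of the 204, 11 changed sign while under the fold or low in level. Gnas in glucagon and somatostatin cells passed the fold under every alternative run. Mest in somatostatin cells did so except at a hormone share of 99%, which left 1 somatostatin cell, with a ratio of 0.81. Plagl1 in somatostatin cells reversed to -0.52 in the rounded columns, -0.62 at a share of 99% and -1.26 without its highest cell. The count of genes past the fold in glucagon cells was 2 when low values were kept and 2 in the rounded columns. In somatostatin cells it was 2 with class medians, 6 with low values kept, and 3 at a pseudocount of 10, in the rounded columns, at a share of 99% and after rescaling. It was 4 in the full-precision columns and with at least 3000 genes, where Nnat took the place of Meg3. In PP cells it was 2 with class medians, and 1 in the full-precision columns, at a share of 99%, after rescaling and without cells carrying markers of other types. That last setting and leaving out the highest cell were chosen after seeing the data. No paired analysis was possible because the labels put all cells in 1 group. Leaving out a replicate was not possible for the same reason. The 11 PP and 13 somatostatin cells limit what these shares can show, as do depth and drop-out in single cells for sparse genes.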
